A study of Mus musculus with 2 samples.

Results

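Retinoic acid is made from vitamin A by retinaldehyde dehydrogenases, is broken down by Cyp26 hydroxylases of the cytochrome P450 family, and acts through the nuclear receptors RARα, RARβ and RARγ, which bind DNA together with RXR partners. The cellular retinoic acid binding proteins Crabp1 and Crabp2 carry it inside cells. In the embryonic head, enzymes of synthesis and breakdown lie in separate domains and so shape where the signal acts, and both excess and lack of retinoic acid disturb the facial skeleton. Here 10 genes of this pathway were taken by their gene symbol from both deposited transcript tables: the dehydrogenases Aldh1a2 and Aldh1a3, the hydroxylases Cyp26a1, Cyp26b1 and Cyp26c1, the receptors Rara, Rarb and Rarg, and the carriers Crabp1 and Crabp2. They are 10 of 30723 genes and 23 of 59055 transcripts with usable lines, and all 10 symbols were found in both tables.

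The tissue was the mouse mandibular prominence, the first arch swelling that gives rise to the lower jaw and much of the tongue. The control library came from embryos labelled only as control, and the mutant library from embryos with the genotype Kif3a f/f ; Wnt1-Cre, in which the gene of a kinesin needed to build primary cilia is deleted by a Cre that is active in neural crest and its descendants. Both groups were on a mixed CD1 background, and the labels give E11.5, counted in embryonic days, for both. Each group is 1 library of total RNA from 10 pooled embryos, so there is no replicate, no test between genotypes and no measure of variation between embryos. The file names of the submitters instead read E11.5 in the control case and E11 in the mutant case, with separate sequencing runs, so stage, run and genotype cannot be told apart.

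Values are FPKM, fragment numbers divided by transcript length and by the mapped fragments of the library, summed over the transcripts of a gene. Per length they can be compared between genes. The log2 ratio is mutant over control after adding 1 to each FPKM. Of the 10 genes, 9 had a mean of at least 1 FPKM and were placed among the 12259 genes that did. Intervals are 95% counting intervals on approximate fragment numbers, in total about 24700000 for the control library against 24500000 for the mutant library, and cover counting error only. Kif3a itself, measured over its whole transcripts, had 11.46 FPKM in control tissue against 5.39 in mutant tissue, 0.471 times as much (0.431 to 0.514). The median log2 ratio of all genes compared was -0.13, with the 10th percentile at -0.47 and the 90th at 0.28. Of the labelled tissue, all 12 mandibular mesenchyme markers passed 1 FPKM and summed to 934 FPKM in control tissue against 844 in mutant tissue, while of 10 eye, nasal and forebrain markers 8 stayed under 0.5 FPKM in both libraries.

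Short DNA elements bind the receptors, and among the best known are those of Rarb and Cyp26a1, which textbooks give as direct retinoic acid targets. They are shown because these genes differed in opposite directions between the libraries, as described further on. RefSeq start-site windows on GRCm38.p6, from 250 bases before to 50 after the start, were given for 8 of the 10 genes, 12 windows in all, and not for Aldh1a3 and Crabp2. They were searched on both strands for 2 copies of GTTCA or GGTCA in the same orientation, 3 or 6 bases apart, which leaves 2 or 5 bases between the 6-letter elements. The Rarb site lies at chr14:16575506-16575535 and the Cyp26a1 site at chr19:37697769-37697798. Both are printed 5′ to 3′ on the minus strand, which is the gene's own strand for Rarb and the opposite strand for Cyp26a1, and capitals mark the 6-letter elements.
Rarb: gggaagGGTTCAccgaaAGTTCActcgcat
Cyp26a1: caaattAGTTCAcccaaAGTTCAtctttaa
In both sites 5 bases separate the elements. The element pair spans bases -53 to -37 from the RefSeq start in Rarb and -32 to -16 in Cyp26a1. The spacing of 5 occurs in 0.247% of all 32851 windows and the spacing of 2 in 0.399%. With spacing 2 no window of the 8 genes matched, and no other window of the 8 matched with spacing 5. A match describes letters and is no proof of binding, and a window without one says nothing of elements outside it.

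Across the pathway, the main dehydrogenase, the main hydroxylase and all receptors and carriers were lower in the mutant library, while the other 2 hydroxylases were higher. Scaling both libraries to a common FPKM total over all transcripts, which puts the median of all genes at 0.39, turns the log2 ratios of Rara to 0.091, Rarg to 0.26, Crabp1 to 0.24 and Crabp2 to 0.32. With it Aldh1a2 moves to -0.42, Cyp26b1 to -0.44 and Rarb to -0.15, and Cyp26a1 to 0.70 and Cyp26c1 to 0.69. The 7 genes that were lower as deposited stay below the median of all genes. None of the 9 measured genes reached a log2 ratio of -1 (0 genes, against 1.36% of all genes compared) or of 1 (0 genes, against 0.767%). On the deposited FPKM without the added 1, 2 of the 9 were at least 2-fold lower, Aldh1a2 and Cyp26b1, against 2.84% of all genes compared. Counting intervals lay below a ratio of 1 for 7 genes and above it for 2. For all genes compared these shares were 48.7% and 19.0%, so an interval that leaves out 1 is common between these libraries. Log2 ratios below 0 were also common, at 67.9% of genes, and the 7 genes lay below the median gene as well. The median of the 9 was -0.35 as deposited, and turned to 0.24 with the common total over all transcripts. In bulk tissue, fewer cells of a type and less RNA per cell cannot be told apart, here and in all results that follow.

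**Figure D1:**
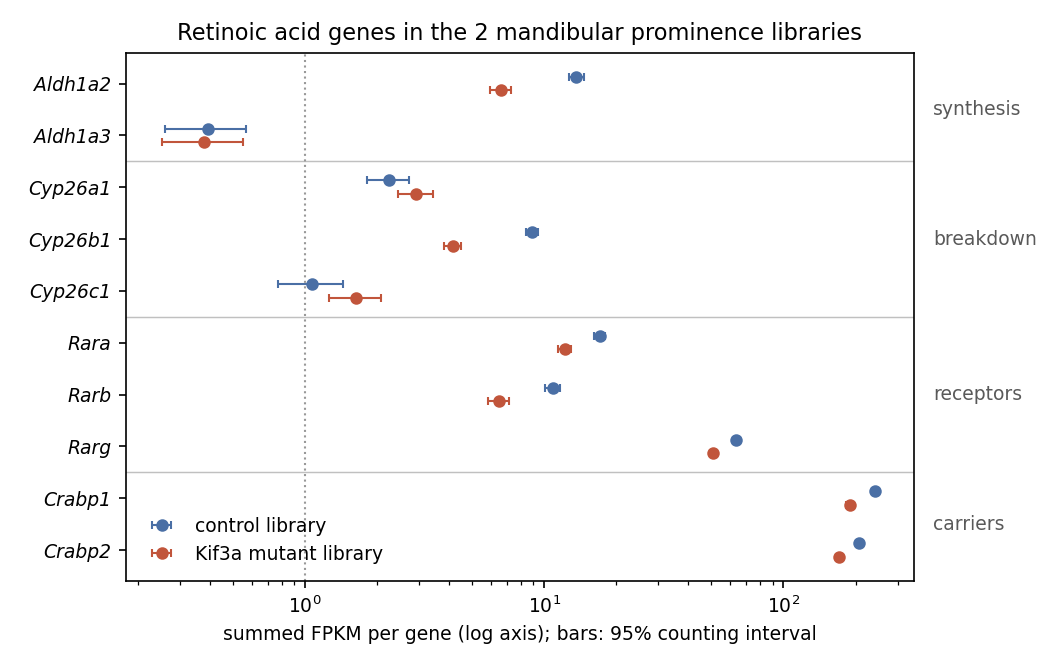
Summed FPKM of the 10 genes (log axis) in the control library (blue) and the Kif3a mutant library (red), 1 library each, with 95% counting intervals as bars; the dotted line marks 1 FPKM. The carriers lie highest at 171 to 240 FPKM, and only Cyp26a1 and Cyp26c1 lie to the right of the control in the mutant.

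Levels spanned from the carriers, above 97.1% of compared genes in the control, to Aldh1a3, below 1 FPKM. The order in the control ran Crabp1, Crabp2, Rarg, Rara, Aldh1a2, Rarb, Cyp26b1, Cyp26a1, Cyp26c1 and Aldh1a3, and it was the same in the mutant. Counting intervals of neighbours in this order were apart in both libraries, except Aldh1a2 and Rarb in the mutant, at 6.58 FPKM (5.96 to 7.25) and 6.44 FPKM (5.82 to 7.12).

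Aldh1a2 encodes the dehydrogenase that makes most retinoic acid in early embryos. It has 1 transcript of 2264 bases in the tables, on chromosome 9 from 71215789 to 71296243 of GRCm38. It stood at 13.6 FPKM (12.7 to 14.6) in control tissue against 6.58 FPKM (5.96 to 7.25) in mutant tissue, on about 788 and 411 fragments. The mutant value was 2.07-fold lower (1.84 to 2.34), a log2 ratio of -0.95, and 1.51% of the compared genes had a lower log2 ratio. The log2 ratio was -0.71 with a common total over transcripts of at least 200 bases, where the median of all genes is 0.11, and -0.42 with that over all transcripts. Aldh1a3, a dehydrogenase known from eye and nasal epithelium, lies on chromosome 7 from 66390893 to 66427477 and stood at 0.392 FPKM in control tissue against 0.379 in mutant tissue. With about 28 fragments in each library its ratio of 0.969 had an interval from 0.553 to 1.70, so a difference was not detectable at this depth. Aldh1a2 made up 97.2% of the summed dehydrogenase FPKM in control tissue against 94.5% in mutant tissue, and the sum went from 14.0 to 6.96.

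The Cyp26 genes differed among themselves. Cyp26b1, on chromosome 6 from 84571414 to 84593908, stood at 8.91 FPKM (8.40 to 9.45) in control tissue against 4.14 FPKM (3.81 to 4.50) in mutant tissue. That is 2.15-fold lower (1.94 to 2.38), with about 1117 and 574 fragments behind the values, and 1.53% of compared genes had a log2 ratio below its value of -0.95, which was -0.72 and -0.44 with the same 2 totals. Cyp26a1, on chromosome 19 from 37697808 to 37701536, stood at 2.24 FPKM (1.82 to 2.72) and 2.92 FPKM (2.45 to 3.44). Its mutant to control ratio was 1.30 (1.001 to 1.70) on about 99 and 140 fragments, and its log2 ratio of 0.27 exceeded that of 89.7% of genes. Cyp26c1, on the same chromosome from 37685680 to 37693307, stood at 1.07 FPKM (0.772 to 1.45) and 1.64 FPKM (1.26 to 2.09). Its ratio was 1.53 (1.02 to 2.31) on about 42 and 65 fragments, with a log2 ratio of 0.35 above that of 92.8% of genes. With the 2 common totals the log2 ratio of Cyp26a1 was 0.47 and 0.70, and that of Cyp26c1 0.50 and 0.69. As deposited, the lower bounds of both ratios lie close to 1, and for both genes the FPKM intervals of the 2 libraries overlap.

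Cyp26c1 and Cyp26a1 are neighbours, with 4500 bases between them in the same orientation. Exoc6, an exocyst subunit gene that ends 2430 bases before Cyp26c1 and was looked up for its position, stood at 3.76 and 3.74 FPKM, a ratio of 0.996 (0.839 to 1.18). Within the summed Cyp26 FPKM, Cyp26b1 held 72.9% in control tissue against 47.7% in mutant tissue, Cyp26a1 18.3% and 33.5%, and Cyp26c1 8.76% and 18.8%. The sum itself was 12.2 FPKM in control tissue against 8.70 in mutant tissue. Cyp26b1 remained the most abundant hydroxylase in both libraries. The dehydrogenase sum was 1.15 times the Cyp26 sum in the control and 0.800 times in the mutant, a ratio of RNA levels that carries no measure of enzyme activity.

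All 3 receptor genes were lower in the mutant as deposited, and so they were with a common total over transcripts of at least 200 bases (log2 ratios of -0.21 for Rara, -0.43 for Rarb and -0.057 for Rarg), while with the total over all transcripts Rarb alone was, at -0.15. Rarg, the most abundant receptor, lies on chromosome 15 from 102234940 to 102257483 and stood at 63.6 FPKM in control tissue against 50.8 in mutant tissue, 1.25-fold lower (1.20 to 1.31), with a log2 ratio of -0.32. Rara, on chromosome 11 from 98937696 to 98974942, stood at 17.1 and 12.2 FPKM, 1.41-fold lower (1.30 to 1.52), with a log2 ratio of -0.46. Rarb, on chromosome 14 from 16430840 to 16819134, stood at 10.8 and 6.44 FPKM, 1.68-fold lower (1.49 to 1.91). Only 3.83% of compared genes had a log2 ratio below that of Rarb, -0.67, against 10.6% for Rara and 22.9% for Rarg. Their summed FPKM went from 91.6 to 69.4. Rarg held 69.5% of this sum in control tissue against 73.2% in mutant tissue, and Rarb 11.9% and 9.29%.

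Rarb and Cyp26a1, which share the element with 5-base spacing shown above, thus lay on opposite sides of the median gene, Rarb at 0.594 of its control value (0.524 to 0.673) and Cyp26a1 at 1.30 (1.001 to 1.70).

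**Figure D2:**
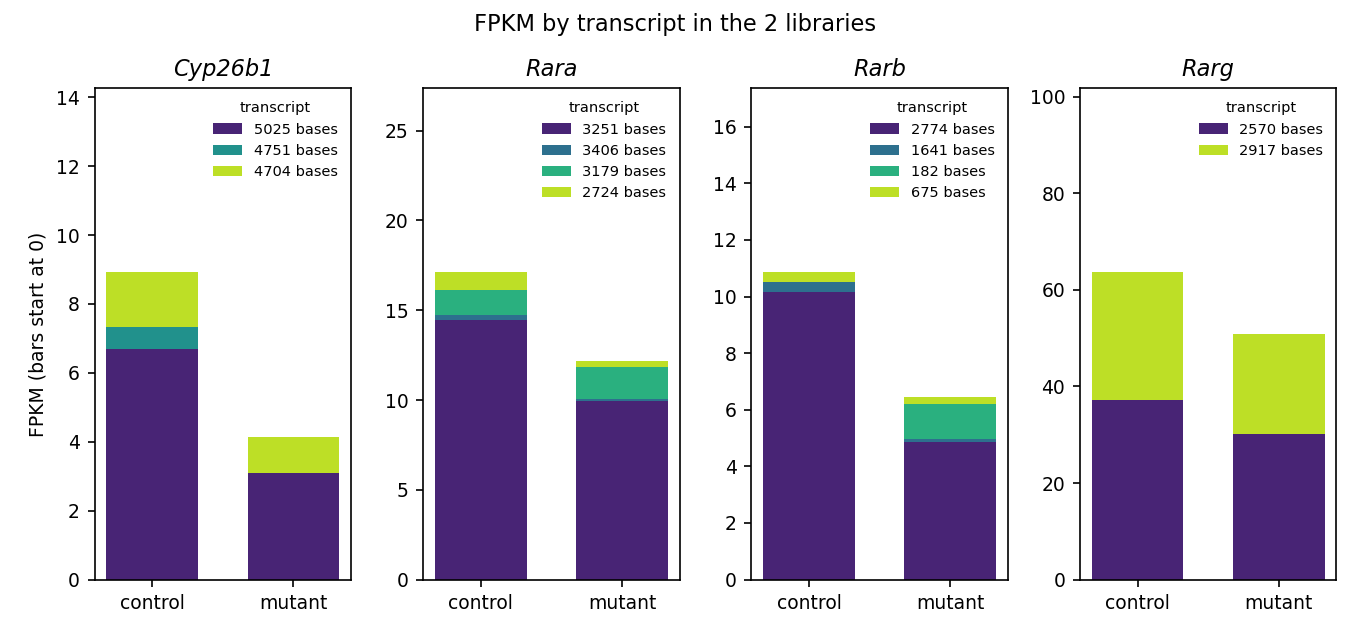
FPKM by transcript for Cyp26b1, Rara, Rarb and Rarg in both libraries, 1 library per bar, each stack reaching the summed FPKM of the gene and each colour a transcript named by its length; transcripts at or under 0.05 FPKM in both libraries are not drawn. The 182-base Rarb transcript appears in the mutant bar alone, and the Rarg transcripts keep nearly the same shares.

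The transcripts of a gene share reads, so their values are estimates of how Cufflinks split those reads. In Rarb the 2774-base transcript, which begins near the start site with the element shown above, stood at 10.2 FPKM in control tissue against 4.88 in mutant tissue, 0.480 of the control value (0.422 to 0.545). A 182-base transcript was listed at practically 0 in control tissue against at 1.23 FPKM in mutant tissue. This rested on about 6 fragments and made up 19.1% of the mutant sum. Without transcripts under 200 bases, an alternative added after seeing the data, Rarb stood at 10.8 and 5.21 FPKM, 2.08-fold lower with a log2 ratio of -0.93, close to the values of Aldh1a2 and Cyp26b1. The Rarb transcripts that reach the upstream start at 16819134 stayed at or under 0.345 FPKM in both libraries.

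In Rara the 3251-base transcript from the upstream start at 98937696 held 84.6% of the sum in control tissue against 81.8% in mutant tissue, at 14.5 and 9.96 FPKM, 1.45-fold lower. The transcript of 3179 bases that starts at 98960471 went the other way, at 1.39 and 1.77 FPKM, with a ratio of 1.28 and an interval of 0.992 to 1.64 that holds 1. The transcript of 2724 bases from 98964872 stood at 0.996 and 0.348 FPKM, 2.86-fold lower on about 68 and 26 fragments. The Rara transcripts therefore did not differ by 1 common factor, as far as the split of reads among them can be relied on.

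The 2 Rarg transcripts, of 2570 and 2917 bases, have separate start sites and stood at 37.1 and 26.5 FPKM in control tissue, against 30.1 and 20.7 in mutant tissue. The 2570-base transcript held 58.4% of the sum in control tissue against 59.2% in mutant tissue. For Cyp26b1 the transcript of 5025 bases, which starts inside the gene at 84588638 on the minus strand, held 75.0% and 74.9% of the sum, at 6.69 and 3.10 FPKM, a ratio of 0.464 (0.413 to 0.522). The transcript of 4704 bases from the outermost start stood at 1.58 and 1.04 FPKM, a ratio of 0.657 (0.524 to 0.824), and that of 4751 bases at 0.645 FPKM in the control and practically 0 in the mutant. In the Aldh1a3 gene the 3400-base transcript stood at 0.327 and 0.268 FPKM and the 1221-base transcript at 0.0645 and 0.111.

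The carriers were the most abundant genes of the pathway, and lower in the mutant as deposited, with log2 ratios of -0.082 for Crabp1 and -0.0041 for Crabp2 under the common total over transcripts of at least 200 bases and above 0 under that over all transcripts. Crabp1, which binds retinoic acid in the cytoplasm and is well known from migrating and facial neural crest, lies on chromosome 9 from 54764808 to 54773109. It stood at 240 FPKM (234 to 248) in control tissue against 189 FPKM (183 to 195) in mutant tissue, 1.27-fold lower (1.22 to 1.33). Crabp2, which delivers retinoic acid to the receptors in the nucleus, lies on chromosome 3 from 87948693 to 87953372. It stood at 206 FPKM (200.02 to 212) and 171 FPKM (166 to 176), 1.21-fold lower (1.16 to 1.26). With about 3818 to 4708 fragments behind each value the counting intervals are narrow, but log2 ratios of -0.35 and -0.27 had 19.7% and 29.2% of compared genes below them. The share of Crabp1 in the sum of both carriers was 53.9% in control tissue against 52.5% in mutant tissue.

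Log2 ratios followed transcript length in these libraries, with a Spearman correlation of 0.407 across the 12259 genes, which are not independent replicates. The carriers have short transcripts, of 741 and 900 bases, and genes of that length had fitted log2 ratios of -0.29 and -0.28. With this trend removed Crabp1 had -0.061 and Crabp2 0.014, next to the other genes of their length. Cyp26b1 had -0.95, Aldh1a2 -0.77, Rarb -0.53, Rara -0.34 and Rarg -0.16. Only 1.03% of genes lay below Cyp26b1, 1.62% below Aldh1a2 and 3.52% below Rarb on this scale. Cyp26a1 had 0.49 and Cyp26c1 0.58, above 94.9% and 96.3% of genes.

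**Figure D3:**
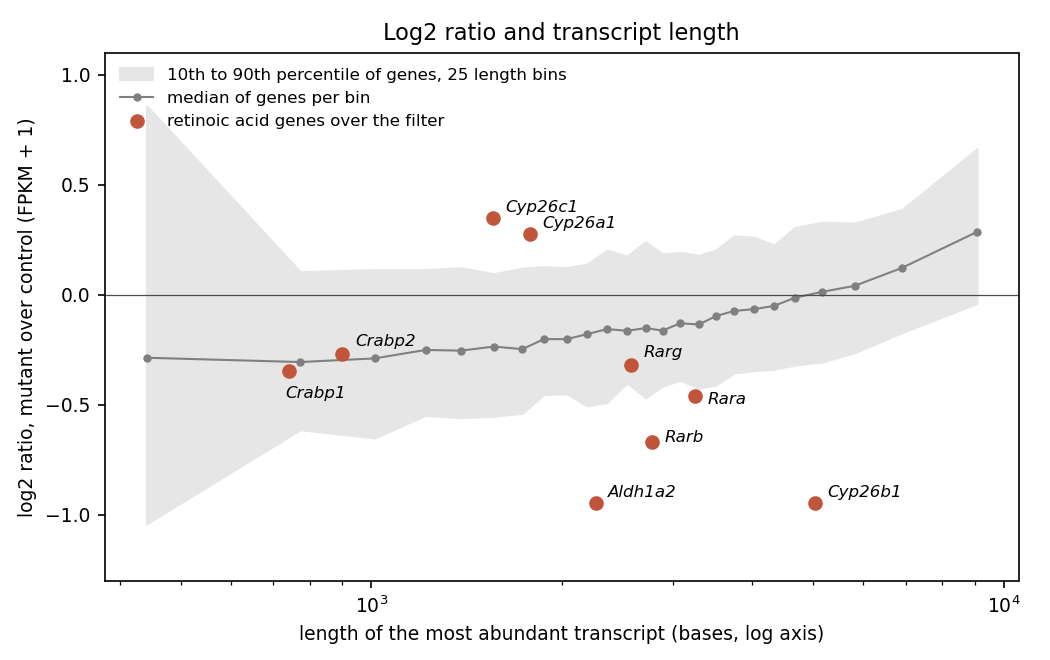
Log2 ratio against length of the most abundant transcript (log axis): grey points are medians of genes in 25 length bins, the grey band their 10th to 90th percentiles, and red points the 9 measured retinoic acid genes. Crabp1 and Crabp2 lie by the grey line, Rarg within the band, Aldh1a2, Cyp26b1, Rarb and, just past its edge, Rara under it, and Cyp26a1 and Cyp26c1 over it.

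The steps before retinoic acid synthesis were taken from a list of 22 genes for vitamin A uptake, storage and the conversion of retinol and retinaldehyde. All 22 were found, 1 of them under an older symbol, and 8 passed 1 FPKM. All 8 were below 0 in log2 ratio as deposited, against 67.9% of all genes compared. Being below 0 depends on the scaling, and values with the common totals are not given for this list. Of the 8, 6 were also below the median gene, and the median was -0.38. In the list 0 were at least 2-fold higher, against 0.767% of all genes, and 1 at least 2-fold lower, against 1.36%. That 1 gene was Dhrs3, a retinaldehyde reductase that limits retinoic acid formation, at 6.07 FPKM in control tissue against 2.51 in mutant tissue. It was 2.42-fold lower (1.92 to 3.06), with a log2 ratio of -1.01. Rdh10, which makes the retinaldehyde used by Aldh1a2, stood at 9.32 and 5.20 FPKM, 1.79-fold lower (1.56 to 2.06). The retinol uptake receptor gene Stra6 stood at 11.8 and 7.99 FPKM, 1.47-fold lower (1.32 to 1.63), and the retinol dehydrogenase gene Rdh14 at 9.14 and 6.56 FPKM, 1.39-fold lower (1.18 to 1.65). Adh5, the most abundant gene of the list and a widely expressed alcohol dehydrogenase, stood at 111 and 86.9 FPKM. With the length trend removed, 5 of the 8 lay below 0 and the median was -0.15.

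Receptor partners and cofactors showed another pattern as deposited. Of 19 listed genes 18 passed 1 FPKM, 6 below and 12 above the median gene, with a median log2 ratio of 0.073 as deposited. In this list 0 were at least 2-fold lower, against 1.36% of all genes compared, and 0 at least 2-fold higher, against 0.767%. The highest were the histone acetyltransferases Crebbp (0.60) and Ep300 (0.58), the corepressor gene Ncor1 (0.43) and the receptor-interacting Nrip1 (0.38). Crebbp stood at 7.30 FPKM in control tissue against 11.6 in mutant tissue, and Ep300 at 10.3 and 15.9. Their transcripts of 7507 and 8749 bases are long, and without the length trend they had 0.43 and 0.33. The list then had a median of -0.016, with 10 of the 18 below 0. Ncor1 and Nrip1 instead had 0.71 and 0.41 on that scale. For Ncor1 the most abundant of 11 transcripts has only 491 bases, so its summed FPKM and its length correction rest largely on a short transcript. Fabp5, the most abundant and an alternative carrier of retinoic acid, stood at 241 and 203 FPKM. The RXR partners, named for their role and not by the rule, were Rxra at 22.5 and 18.7 FPKM, Rxrb at 21.7 and 17.1, and Rxrg under the filter at 0.636 and 0.306.

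Genes that retinoic acid is known to induce, other than the 10, made a list of 19, which shares Dhrs3 and Stra6 with the uptake list. Of the 12 that passed 1 FPKM, 10 were below 0 in log2 ratio as deposited, against 67.9% of all genes compared. Of these 10, 8 were also below the median gene, and the median of the 12 was -0.23. Here too being below 0 depends on the scaling, and values with the common totals are not given. In the list 1 gene, Dhrs3, was at least 2-fold lower, against 1.36% of all genes, and 0 at least 2-fold higher, against 0.767%. The transglutaminase gene Tgm2 stood at 1.92 FPKM in control tissue against 1.01 in mutant tissue, 1.91-fold lower (1.48 to 2.47), and Rarres2, the gene of the secreted protein chemerin, at 2.32 and 1.31 FPKM, 1.77-fold lower (1.03 to 3.09). The homeobox gene Gbx2 went the other way at 2.31 and 3.99 FPKM, a ratio of 1.73 (1.38 to 2.17). The most abundant, the nuclear receptor gene Nr2f1, stood at 55.9 and 45.4 FPKM, with a log2 ratio of -0.30. With the length trend removed, 9 of the 12 lay below 0 and the median was -0.24.

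**Figure D4:**
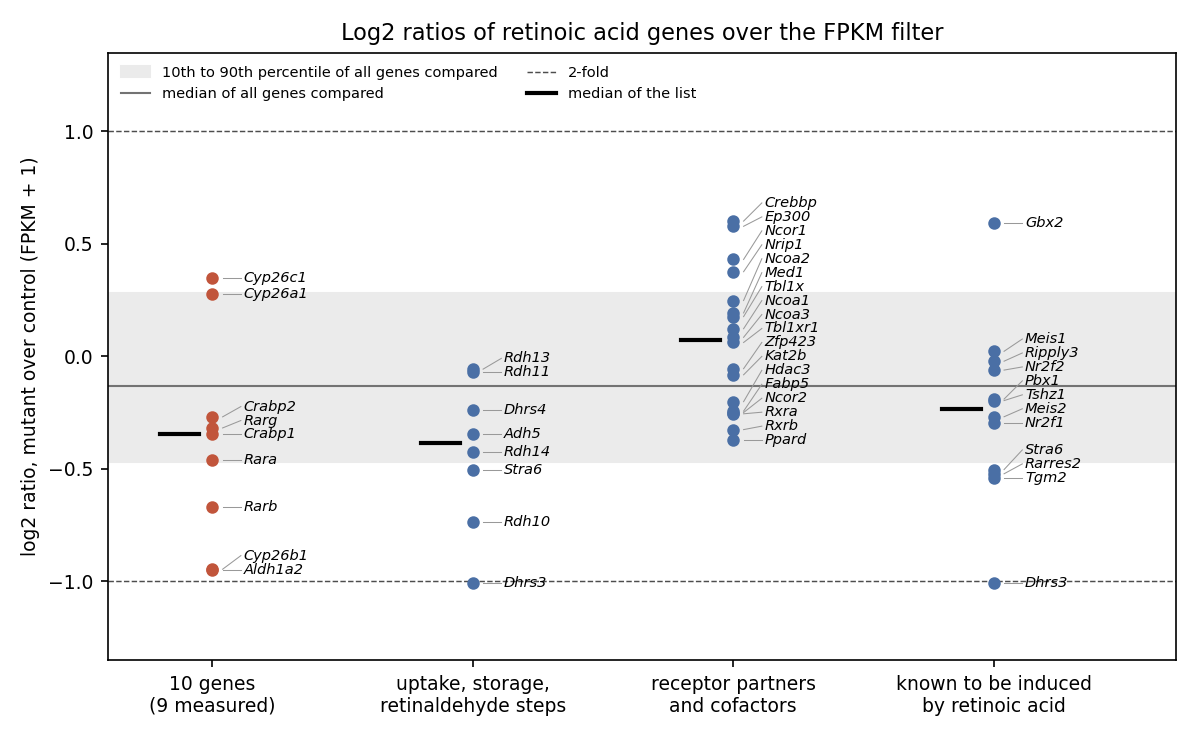
Log2 ratio, mutant over control with 1 added to FPKM, of every gene over 1 FPKM in the 10-gene set (red) and in the other 3 lists (blue), with list medians as black bars; the grey band spans the 10th to 90th percentile of all genes compared and dashed lines mark 2-fold. As deposited, the uptake list lies below 0 as a whole, as do 67.9% of all genes compared, while 10 of the 18 partners and cofactors lie above 0. With the length trend removed (not drawn), 5 of the 8 uptake genes and 10 of the 18 partners and cofactors lie below 0.

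Marker genes of other cell types differed between the pools as well. Of 9 erythroid markers in the tables all 9 lay below the median gene, 8 at least 2-fold lower, against 1.36% of all genes compared. Their sum was 25900.0 FPKM in control tissue against 7316 in mutant tissue. Of 9 measured muscle precursor markers 8 were under the median gene, and 5 had a log2 ratio of -1 or less, with sums over all 11 of 59.7 and 33.5 FPKM. Of 10 endothelial markers 9 lay below the median gene, 0 at least 2-fold lower, with sums of 102 and 69.7. Of 14 epithelial markers 11 lay above it, with sums of 212 and 239. The epithelial list was not uniform, since 3 keratin genes lay below the median gene. Of these 1, Krt15, was at least 2-fold lower, at 15.2 and 6.39 FPKM. The others were Krt5, at 15.2 and 8.81 FPKM, and Krt14, at 15.6 and 13.1. No marker of these 4 lists that the tables hold was at 0. Second arch and hindbrain markers were low, with 7 of 10 under 0.5 FPKM in both libraries and sums of 5.19 and 3.79. Of 8 pharyngeal endoderm markers 4 were measured, 3 of them below the median gene, with sums of 11.6 and 8.39. Among them 1, Pax1, was at least 2-fold lower, at 2.15 and 0.433 FPKM. Of 12 neuron and glia markers 6 were measured, 2 below the median gene, with sums of 26.4 and 25.5. Here 1, Fabp7, was at least 2-fold lower, at 2.61 and 0.608 FPKM. The eye, nasal and forebrain markers summed to 6.06 and 4.52 FPKM, with 2 of 10 markers at 0 in control tissue against 4 in mutant tissue. The part of these marker differences in the values of the retinoic acid genes was not tested.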

How the data were processed

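The authors deposited 1 table per library, which the naming of the tables credits to Cufflinks. Per the file headers it gives locus, length, coverage signal and FPKM for each transcript. The submitters' processing notes name the build mm9, but 72.1% of 45475 transcripts whose symbol is in GENCODE M21 share a start or end with a GRCm38 transcript of that gene, as do 13 of the 23 transcripts described here, so coordinates are given on GRCm38, 1-based. For aligner, versions and strandedness: not given in the sources used here.

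Lines displaced by spaces in a gene name, 65 per library, were left out. FPKM was summed per gene symbol, genes with a mean of at least 1 FPKM were compared, and log2 ratios used a pseudocount of 1. Fragments were approximated as deposited coverage times length over 156 bases (control) or 153 bases (mutant), the median yield of genes near 1 fragment (80 to 220 bases, single transcripts over 1500 bases). Ratios carry exact Clopper-Pearson intervals and levels exact Poisson intervals, at 95%. The length trend was a lowess fit over a share of 0.3 of genes (statsmodels 0.14.6, scipy 1.17.1, Python 3.11.15). It was tested on simulated data with counting error only and a straight trend in log2 length. The fitted trend here was instead about flat at short lengths, at -0.28 for 441, -0.29 for 772 and -0.28 for 1012 bases. The simulation did not cover that shape. No p-value was computed. Of the wider lists the most abundant gene, each gene at least 2-fold different and up to 4 with the largest absolute log2 ratio are named. The members and lists were chosen with earlier results of these data known, and 2 genes of the wider lists are not reported here. With 2 libraries no ranking of genes by likeness to these was made.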

Additional observations from a re-analysis of the deposited data

How the results depend on the processing

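With 1 library per group, leaving out a replicate was not possible, and no paired analysis was possible because each group holds a single sample. The count of genes at least 2-fold lower became 2 (Aldh1a2 and Cyp26b1) with a pseudocount of 0.1, where 2.55% of all genes were called, and was 0 under the other alternatives, as was the count of genes at least 2-fold higher under all of them. The median log2 ratio of the measured genes was -0.46 with a mean of at least 5 FPKM, which leaves out Cyp26a1 and Cyp26c1, -0.22 after centring on the median gene, -0.21 with upper quartile scaling, -0.082 with a common total over transcripts of at least 200 bases, -0.16 with the length trend removed and 0.24 with a common total over all transcripts. With the last scaling all genes had a median of 0.39, and it turned Rara to 0.091, Rarg to 0.26, Crabp1 to 0.24 and Crabp2 to 0.32. Relative to the median gene, 7 genes stayed below and 2 above under every scaling. Removing the length trend put Crabp2 at 0.014 and gave 6 below and 3 above. Among all genes, 167 were at least 2-fold lower and 94 higher as deposited, 129 and 132 after centring, and 68 and 472 with the common total. Of the other single-gene values, 65 moved by less than their counting interval and 28 by more, with the direction kept. Part of the 65 could not move at all. A change of filter leaves the log2 ratio of a gene as it was. So do the transcript alternatives for genes with 1 transcript or with none under 200 bases. The 65 are therefore no measure of how stable the values are. The depth limits Aldh1a3, with about 28 fragments per library, and Cyp26c1, with 42 and 65.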

Other observations

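Several textbook retinoic acid targets lay under the filter of 1 FPKM, and are named here after their values were seen. Hoxb1 stood at 0.021 FPKM in control tissue against 0.018 in mutant tissue, and Cdx1 at 0.106 and 0.255. Stra8, a gene of germ cells entering meiosis, was listed at 0 in control tissue and at 0.017 FPKM in mutant tissue. Hoxb1 is known from the hindbrain and second arch rather than the mandibular arch. Of 68 distinct genes in the 10-gene set and the 3 wider lists, 50 had a RefSeq start-site window, and besides Rarb and Cyp26a1 only Kat2b, an acetyltransferase gene, held the element repeat searched for. Kat2b stood at 1.33 FPKM in control tissue against 1.20 in mutant tissue, with a ratio of 0.903 (0.712 to 1.14).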
